A study of Mus musculus with 34 samples.

Results

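In adult mouse liver, 6693 of 24253 peaks of the nuclear receptor HNF4α were distal sites without HDAC3 or PROX1 as the peak lists give them. These sites, called members here, were chosen by measured peak positions. No single HDAC3 or PROX1 peak covered 50% or more of the HNF4α peak, and the centre of the HNF4α peak had to lie more than 1 kb from the transcription start site (TSS) of every protein-coding transcript in mm9. Of the 21616 HNF4α peaks that were distal by the same TSS limit, members were 31.0%. A further 12053 distal peaks had both HDAC3 and PROX1, 2707 had PROX1 only and 163 had HDAC3 only. HNF4α was immunoprecipitated from livers labelled HNF4A floxed, of male C57B/6 mice 10 weeks old, collected at zeitgeber time 10, late in the light phase (2 labelled libraries, while the study's methods give 3 livers for each ChIP). According to the study's methods these were Hnf4α fl/fl mice that received AAV8 TBG Egfp, a control virus driven by a hepatocyte promoter, so their HNF4α was intact. HDAC3 (3 libraries) and PROX1 (3 libraries) came from livers labelled Control, of the same strain, sex, age and time, in other mice. In these lists, a difference between the factors therefore cannot be told apart from one between these groups of mice. The series also has HDAC3 and PROX1 libraries labelled HNF4A floxed, which were not used here. Each list was made from pooled libraries, and which ones were pooled is read from the labels and methods, so no value below has a spread between livers. Liver markers could not be checked in lists of positions.

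HNF4α is a nuclear receptor that binds DNA as a homodimer, at direct repeats of a short element, and maintains the gene program of hepatocytes. HDAC3 is a histone deacetylase that works within the NCoR corepressor complex, and PROX1 is a homeobox protein that acts in liver as a corepressor. A member has HNF4α binding without a corepressor peak that passed the lists' own limits, and weaker HDAC3 or PROX1 signal at a member cannot be read from the lists.

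The highest-scored members show the range of sites that the rule took in. Their HNF4α peaks are printed below 5′ to 3′ on the plus strand of mm9, in lower case. Capitals mark the best match, on either strand, to the HNF4 consensus, a motif of 13 bases, with at most 2 mismatches. The first 4 are the highest-scored members with that match inside the peak.
Heatr7b1 member, chr1:90156749-90156900: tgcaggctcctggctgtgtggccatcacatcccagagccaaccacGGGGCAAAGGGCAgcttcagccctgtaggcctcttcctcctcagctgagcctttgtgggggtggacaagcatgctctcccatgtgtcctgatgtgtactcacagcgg
Gse1 member, chr8:122933380-122933542: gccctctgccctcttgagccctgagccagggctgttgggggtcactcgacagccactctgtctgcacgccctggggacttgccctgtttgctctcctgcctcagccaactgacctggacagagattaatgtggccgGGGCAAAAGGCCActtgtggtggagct
Ptpn1 member, chr2:167670163-167670329: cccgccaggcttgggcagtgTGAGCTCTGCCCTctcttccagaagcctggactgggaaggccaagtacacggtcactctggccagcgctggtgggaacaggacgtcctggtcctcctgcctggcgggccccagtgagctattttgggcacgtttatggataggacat
Ppm1l member, chr3:69360416-69360576: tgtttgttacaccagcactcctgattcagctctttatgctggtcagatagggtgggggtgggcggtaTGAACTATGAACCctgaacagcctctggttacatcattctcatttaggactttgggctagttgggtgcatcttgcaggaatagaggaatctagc
Each is named by the nearest protein-coding TSS. The Gse1 member, in an intron, lay 27906 bp from the centre of the nearest HDAC3 or PROX1 peak. The other 3 lay 101 to 128 bp from the centre of a peak that HDAC3 and PROX1 shared, and that peak covered 49.3%, 49.1% and 32.9% of them. They were members only because the cover stayed under 50%.

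The 2 highest-scored members without a match, in the peak or in the 200 bp around its centre, are shown for contrast and hold no capitals.
Apoe member, chr7:20286354-20286503: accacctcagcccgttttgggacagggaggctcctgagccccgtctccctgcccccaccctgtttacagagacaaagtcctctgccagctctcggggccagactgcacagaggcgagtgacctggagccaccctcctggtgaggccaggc
Xbp1 member, chr11:5385884-5386048: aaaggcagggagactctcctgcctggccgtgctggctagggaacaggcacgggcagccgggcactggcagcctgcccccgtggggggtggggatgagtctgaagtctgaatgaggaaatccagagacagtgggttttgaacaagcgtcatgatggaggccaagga
The Apoe member lay 1913 bp upstream of the TSS of Apoe, which encodes the ligand by which lipoprotein remnants are taken up, and a shared HDAC3 and PROX1 peak covered 45.3% of it. The Xbp1 member was intergenic, 34696 bp upstream of Xbp1, which encodes a transcription factor of the unfolded protein response, and 6163 bp from a PROX1 peak.

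Members with no HDAC3 or PROX1 peak centre within 1 kb are called isolated below. The next sequences come from isolated members, selected after their values were seen. The first is the highest-scored isolated member at a gene of the lipogenesis list, and the others are the highest-scored ones that match the consensus without a mismatch.
Fasn member, chr11:120692159-120692318: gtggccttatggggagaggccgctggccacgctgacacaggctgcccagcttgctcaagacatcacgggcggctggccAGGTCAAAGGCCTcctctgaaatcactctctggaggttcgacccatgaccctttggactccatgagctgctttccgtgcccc
Bcl11a member, chr11:24186679-24186820: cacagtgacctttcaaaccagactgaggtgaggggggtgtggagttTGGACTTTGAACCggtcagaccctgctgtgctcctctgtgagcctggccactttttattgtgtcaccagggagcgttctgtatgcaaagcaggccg
E2f7 member, chr10:110231676-110231840: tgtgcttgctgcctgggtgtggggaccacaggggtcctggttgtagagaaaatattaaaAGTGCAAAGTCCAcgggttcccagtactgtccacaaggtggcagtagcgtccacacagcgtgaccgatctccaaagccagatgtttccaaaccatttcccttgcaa
The Fasn member was intronic and 6746 bp upstream of the TSS of Fasn, the fatty acid synthase gene. The Bcl11a and E2f7 members were intergenic, at 206079 bp and 49130 bp from the TSS.

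For comparison, the HNF4α peak with the highest score of all distal peaks had both HDAC3 and PROX1 and held 3 matches, of which the best, with 1 mismatch, is in capitals.
Hjurp site with both factors, chr1:90184738-90184905: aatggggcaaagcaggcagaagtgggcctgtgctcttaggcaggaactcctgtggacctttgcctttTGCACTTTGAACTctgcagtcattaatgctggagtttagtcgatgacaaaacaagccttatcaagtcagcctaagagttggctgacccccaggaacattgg
HDAC3 and PROX1 each covered 97.0% of this peak.

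In the next pair, both isolated members, capitals mark the best match to the CTCF consensus instead, a motif of 14 bases with at most 2 mismatches. CTCF is the zinc finger protein that marks chromatin boundaries and loop anchors. They are shown because this motif was the one other than HNF4 motifs that members held most in excess. Their scores were 114.0 (Dkk3, match with 2 mismatches) and 104.6 (Ndel1, with 1). They are not the highest-scored isolated members with a match, as the one at Uggt2 (124.9) also held one.
Dkk3 member, chr7:119323798-119323964: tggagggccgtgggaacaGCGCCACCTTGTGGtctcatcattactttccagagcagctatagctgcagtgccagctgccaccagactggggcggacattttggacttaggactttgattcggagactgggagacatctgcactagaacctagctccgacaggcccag
Ndel1 member, chr11:68688433-68688596: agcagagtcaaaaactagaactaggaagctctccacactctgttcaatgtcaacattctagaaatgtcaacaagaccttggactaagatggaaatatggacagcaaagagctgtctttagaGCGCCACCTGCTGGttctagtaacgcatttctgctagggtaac
The E2f7 member above also held a CTCF match, with 2 mismatches, at bases 110231765 to 110231778 of chromosome 10.

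Members had lower HNF4α scores than the distal sites with both cofactors. The score column of the HNF4α list is taken to be the peak caller's, its scale is not given in the sources used here, and it has no replicates. It bears on membership through the lists' limits, so these values are given without a test. Members ran from 20.3, the lowest score in the list, to 138.1, with quartiles of 25.9, 33.0 and 44.3. The quartiles were 36.3, 51.8 and 72.6 for sites with both, and the median was 37.2 for sites with PROX1 only. When the distal peaks were put into 10 classes of equal size by score, members made up 54.0% (95% Wilson interval 51.8 to 56.0) of the lowest class and 6.75% (5.77 to 7.89) of the highest. Sites with both made up 29.3% and 90.0% of the same classes. The plot of scores by class shows that the distributions overlap over nearly their whole range. Still, 173 members scored at least 80 and 49 at least 100.

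**Figure D1:**
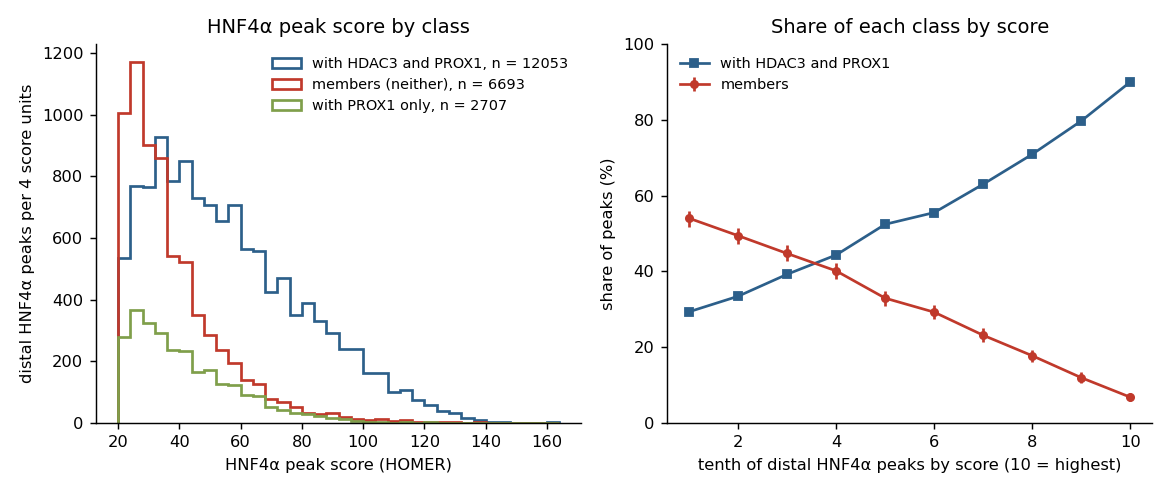
Left, number of distal HNF4α peaks per 4 units of peak score for members, sites with HDAC3 and PROX1, and sites with PROX1 only. Right, share of distal peaks (%) that were members (points, 95% Wilson interval) or had both factors, in 10 classes of equal size by score; members make up 54.0% of the lowest class and 6.75% of the highest.

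Members were divided at 1 kb by their distance to the nearest HDAC3 or PROX1 peak. The distance between centres had a first group just past 100 bp and a second, broad one around 10 kb. The start near 100 bp was set by the rule. HDAC3 and PROX1 peaks are 200 bp wide, and one centred nearer covers 50% or more of the HNF4α peak. In all, 541 members (8.08%) were centred within 200 bp of an HDAC3 or PROX1 peak, 1247 within 1 kb, and 5446 were isolated. For 481 members (7.19%) such a peak touched the HNF4α peak over at least 1 bp. The near peak was shared by HDAC3 and PROX1 for 884 of the 1247 (70.9%), was PROX1 alone for 290 and HDAC3 alone for 73. At the far end, 655 members lay more than 100 kb from any HDAC3 or PROX1 peak, and 412 had no peak of any of the 3 factors within that distance.

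The near members had higher scores. The median was 47.1 within 200 bp, 38.2 from 200 to 500 bp, 33.5 from 500 bp to 1 kb and 30.6 beyond 100 kb. Near members made up 91 of the 173 members with a score of at least 80 (52.6%). Of the 12 highest-scored members, 7 lay within 200 bp of such a peak and 5 were isolated. The isolated ones were the sites at Gse1, Xbp1, Uggt2, Grm2 and D330028D13Rik, with scores of 131.5, 125.3, 124.9, 120.6 and 120.2. The other 7 were the sites at Heatr7b1 (138.1), Apoe (128.6), Ptpn1 (127.2), Ppm1l (126.3), Txn2 (119.2), Accn1 (118.7) and Rgs8 (117.3). Values for isolated members are therefore given beside the main ones for part of the motif and location results.

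Median scores were close on both sides of the rule's limit, while single sites varied. Just inside were a site upstream of Gm6843 with a score of 72.1 and 49.7% cover and a site at Ndst4 with 39.1 and 49.7%. Another, with 49.5% cover, scored 21.7. Just outside, at 50% cover, were sites at Sec63 (72.1), Snrk (70.2) and Bid (67.4). Sites equal in cover were taken in list order, from high to low score, so these single sites do not compare the 2 sides. The 168 members with 40% or more cover had a median score of 47.9, and the 332 distal peaks with 50% to under 60% cover had one of 46.2. The HNF4 consensus, described below, stood in 38.1% of the first and 52.4% of the second. At the TSS limit, a site 1003 bp upstream of Idh2 (score 31.6) was inside and a site 999 bp upstream of Sox9 (24.0) was outside.

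**Figure D2:**
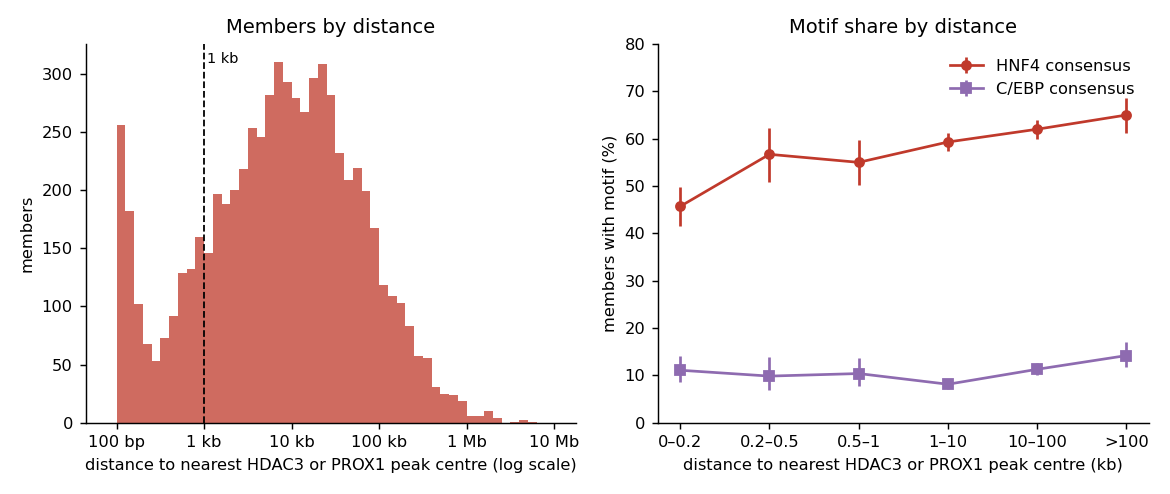
Left, number of members by the distance between their centre and the nearest HDAC3 or PROX1 peak centre (log scale), with a dashed line at 1 kb. Right, share of members (%) with the HNF4 or the C/EBP consensus in 200 bp, by that distance in kb, with 95% Wilson intervals; the HNF4 share is 45.7% within 0.2 kb and 65.0% beyond 100 kb.

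The sequence under the peaks was not used by the rule and could be tested. Motifs were searched on both strands in 200 bp around each peak centre, and shares were compared over peaks by Pearson's chi-square test (two-sided), with p adjusted over 19 motifs by the Benjamini-Hochberg method. Intervals cover counting error only, and neighbouring peaks are not independent, so the p-values are too small to that extent. Against distal sites with both factors, 6 motifs (31.6%) were more frequent in members and 9 (47.4%) less frequent at an adjusted p under 0.05, and 4 passed in neither direction. The HNF4 motifs overlap one another and are not separate findings.

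Members held the HNF4 consensus more often than sites with both factors did, although their scores were lower. It stood in 3972 members (59.3%, 95% Wilson interval 58.2 to 60.5) and in 5178 sites with both (43.0%, 42.1 to 43.8). The difference was 16.4 percentage points (95% interval 14.9 to 17.9, chi-square adjusted p = 2.7e-101), and 9.44 points with 1 mismatch fewer allowed. It was positive on each of the 20 chromosomes compared (1 to 19 and X). Isolated members held the consensus in 61.2% (59.9 to 62.5). Among all distal HNF4α peaks the share was 49.7%. In windows 2 kb to either side of the members it was 9.56%, so that the peaks stood 49.8 points (48.5 to 51.1) above their own surroundings (chi-square 5725 with 1 degree of freedom).

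Better matches showed a larger contrast in ratio between members and sites with both. A match without mismatch was found in 135 members (2.02%) and 116 sites with both (0.962%), and a best match with 1 mismatch in 18.3% and 9.91%. Sites with PROX1 only were near members in these, at 1.55% and 16.2%. The shorter core CAAAGTCCA, which sets HNF4 sites apart from those of other DR1 receptors, stood in 542 members (8.10%, 7.47 to 8.78) and 4.42% of sites with both (4.07 to 4.80, chi-square adjusted p = 1.3e-24). It was in 8.65% of isolated members and in 8.31% of sites with PROX1 only, from which members differed by -0.214 points (-1.44 to 1.01, chi-square adjusted p = 0.77). In the flanks of members this core was in 0.209%, and among all distal peaks in 6.03%. The general DR1 element was in 17.9% against 16.2% (chi-square adjusted p = 0.0034), a difference that turned to -0.524 points among peaks with scores above the list median (chi-square adjusted p = 0.59) and was 0.420 points with 1 mismatch fewer (chi-square adjusted p = 0.17). Matches in members also sat closer to the peak centre than those in sites with both. Of members with a match, 63.8% had the best one centred within 25 bp of the peak centre, against 50.3% of matched sites with both and 61.3% of matched sites with PROX1 only.

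The excess of the HNF4 consensus was widest among weak peaks. Within 5 classes of score formed over members and sites with both, members held it in 54.7%, 58.1%, 63.6%, 64.3% and 69.4% from the lowest to the highest class. Sites with both held it in 23.3%, 28.2%, 35.5%, 46.6% and 61.5%. The share was higher at higher scores in both groups, and the gap was 31.3 points in the lowest class and 7.91 in the highest. Over the 5 classes, the Cochran-Mantel-Haenszel odds ratio was 2.94 (95% interval 2.74 to 3.15, chi-square p = 4.9e-215), which stands for an average of gaps that differed in size.

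Sites with PROX1 only were closer to members. They held the HNF4 consensus in 55.9% (54.1 to 57.8), which was 3.42 points (1.21 to 5.63) below members (p = 0.0023, chi-square test). This difference depended on score. In 5 classes of score over members and sites with PROX1 only, members were 13.5, 15.8, 9.21 and 0.319 points higher in the lower 4 classes and stood at -7.40 points in the highest, at 66.1% against 73.5%. Among peaks with scores above the list median, members stood at -6.57 points (chi-square p = 2.2e-04).

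Near and isolated members differed in this motif too. The share was 45.7% (41.5 to 49.9) within 200 bp of an HDAC3 or PROX1 peak, 59.3% from 1 to 10 kb, and 65.0% (61.3 to 68.6) beyond 100 kb. Members with 40% or more cover had the still lower share of 38.1%, given above with that of the peaks just past the limit.

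**Figure D3:**
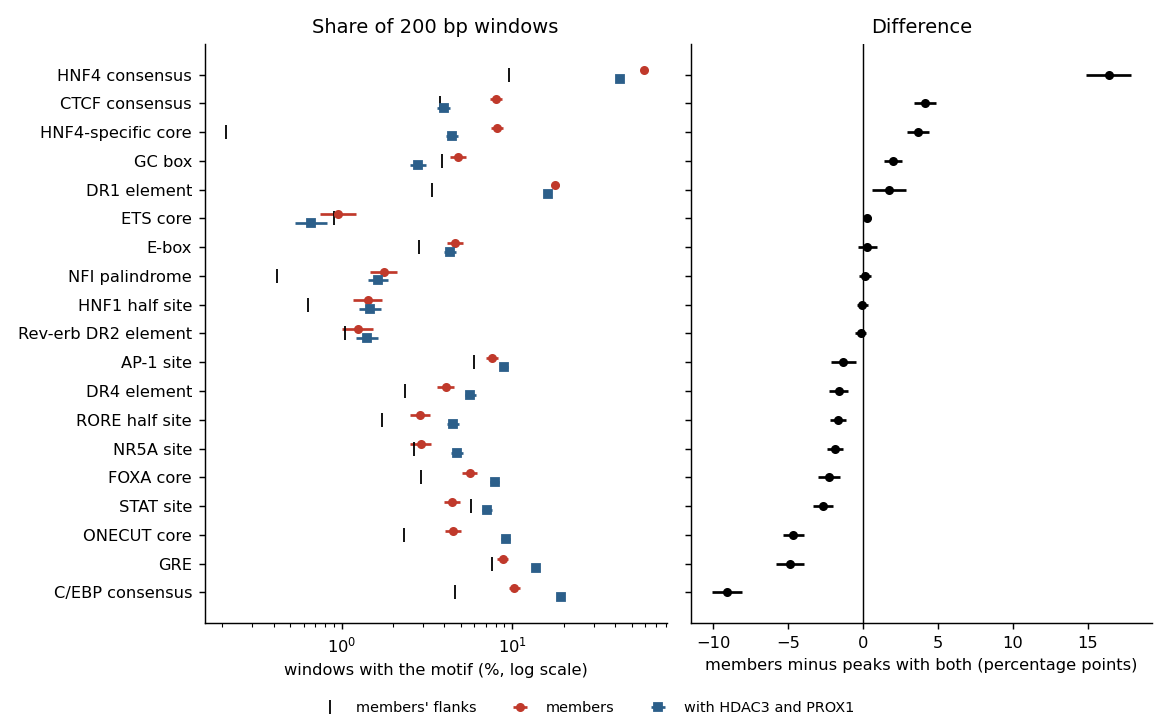
Left, share of 200 bp windows (%, log scale) that held each of 19 motifs in members, in distal sites with HDAC3 and PROX1 (points with 95% Wilson intervals) and in the members' flanks at 2 kb (ticks). Right, the difference in percentage points with its 95% interval; it runs from 16.4 for the HNF4 consensus to -9.08 for the C/EBP consensus.

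The C/EBP, ONECUT, FOXA, glucocorticoid receptor and STAT motifs were less frequent in members than in sites with both. The C/EBP consensus, the site of the leucine zipper factors C/EBPα and C/EBPβ, stood in 692 members (10.3%, 9.63 to 11.1) and in 19.4% of sites with both (18.7 to 20.1). The difference was -9.08 points (-10.1 to -8.06, chi-square adjusted p = 8.1e-58), with members lower on all 20 chromosomes and an odds ratio within score classes of 0.473 (0.430 to 0.521, p = 5.8e-54). With 1 mismatch fewer allowed the difference was -1.79 points. Isolated members held it in 10.3% and the flanks of members in 4.61%. The ONECUT core ATCAATA, bound by HNF6, was in 301 members (4.50%, 4.03 to 5.02), in 4.85% of isolated members, in 9.14% of sites with both (8.64 to 9.67, chi-square adjusted p = 2.4e-30) and in 11.2% of sites with PROX1 only (10.0 to 12.4). For the FOXA core TGTTTAC, bound by forkhead pioneer factors, the values were 5.62% in members, 5.88% in isolated members and 7.87% in sites with both (chi-square adjusted p = 1.7e-08). The glucocorticoid response element was in 8.80% of members, 8.54% of isolated members and 13.7% of sites with both (chi-square adjusted p = 2.6e-22), and the STAT site TTCNNNGAA in 4.42%, 4.37% and 7.10% (chi-square adjusted p = 6.8e-13). The STAT site was the only one of the 19 that was below the members' own flanks at an adjusted p under 0.05, where 5.70% of windows held it.

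Some nuclear receptor sites other than those of HNF4 were also rarer in members than in sites with both. The DR4 element, used by LXR and thyroid hormone receptors, was in 4.06% of members, 3.82% of isolated members and 5.68% of sites with both (chi-square adjusted p = 2.2e-06). The NR5A site TCAAGGNCA, bound by LRH-1, was in 2.90% and 4.76% (chi-square adjusted p = 1.5e-09), with 2.64% in the members' flanks. The site TAGGTCA of ROR and Rev-erb receptors was in 2.87% and 4.51% (chi-square adjusted p = 4.8e-08). The Rev-erb DR2 element did not pass. It stood in 83 members (1.24%) and 1.40% of sites with both, a difference of -0.162 points with an interval from -0.500 to 0.176 (chi-square adjusted p = 0.40). The HNF1 site GTTAATNAT, the NFI palindrome and the E-box CACGTG also did not pass, with differences of -0.0491 (-0.405 to 0.306), 0.137 (-0.251 to 0.525) and 0.288 points (-0.332 to 0.907). The E-box passed in 100 bp windows, at 0.715 points (chi-square adjusted p = 0.004), and the AP-1 site, at -1.30 points in the main windows (chi-square adjusted p = 0.0032), did not pass there, at -0.370 points (adjusted p = 0.28, chi-square test).

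Members were also compared with sites with PROX1 only over the 19 motifs, a comparison added after the data were seen. Members were higher in 8 motifs (42.1%) and lower in 4 (21.1%) at an adjusted p under 0.05, and 7 passed in neither direction. The 4 that were lower were the C/EBP (-3.00 points), ONECUT (-6.66), STAT (-3.04) and glucocorticoid receptor (-3.58) motifs. The FOXA core, at -0.958 points (-2.04 to 0.127, chi-square adjusted p = 0.11), and the NR5A site, at -0.537 (-1.33 to 0.258, adjusted p = 0.22), did not pass. The DR4 element was higher in members, 4.06% against 2.88% (chi-square adjusted p = 0.012), and so was the Rev-erb DR2 element, 1.24% against 0.517% (chi-square adjusted p = 0.004). The members' own flanks held the Rev-erb DR2 element in 1.05%, from which members did not differ at the threshold (chi-square adjusted p = 0.24). The CTCF consensus, GC box, E-box, NFI palindrome, HNF4 consensus and DR1 element were the others that were higher.

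The CTCF consensus was more frequent in members, and most of all in those with high scores. It stood in 541 members (8.08%, 7.45 to 8.76), 3.96% of sites with both (3.62 to 4.32) and 3.55% of sites with PROX1 only (2.91 to 4.31). The difference from sites with both was 4.13 points (3.39 to 4.87, chi-square adjusted p = 4.5e-32), positive on all 20 chromosomes, and the odds ratio within score classes was 2.41 (2.10 to 2.77, p = 2.5e-38). Flanks of members held it in 3.77%, close to the sites with both. Matches without mismatch were in 39 members and in 11 sites with both, although the latter are the larger group.

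By score, the CTCF share in isolated members was 7.09% (6.11 to 8.21) under 30, 8.18% from 30 to under 50, 11.8% from 50 to under 80, and 29.3% (20.5 to 39.9) at 80 or more, where 24 of 82 held it. In sites with both it was 3.75%, 3.75%, 4.13% and 4.18% (3.42 to 5.08) over the same ranges. Among all members with a score of at least 80, 35 of 173 held it (20.2%, 14.9 to 26.8). Of the 50 isolated members with the highest scores, 19 held the CTCF consensus and 39 the HNF4 consensus. The 50 highest-scored sites with both gave 2 and 35, but their scores started at 128.6 and those of the 50 isolated members at 87.6. The HNF4 consensus stood in 54.7% of the members with a CTCF match and in 59.8% of those without. CTCF binding itself was not measured in this series. The study names a filter of HNF4α peaks against livers that lacked HNF4α in one of its comparisons, and whether this list had passed it is not given in the sources used here.

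**Figure D4:**
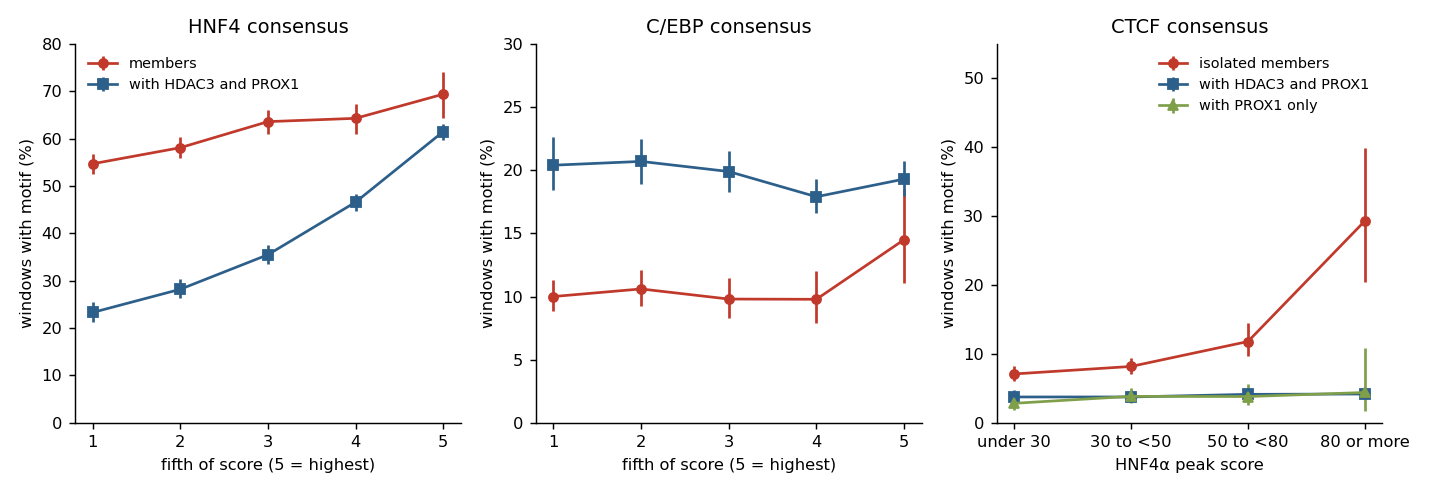
Share of 200 bp windows (%) with the HNF4 or C/EBP consensus in 5 classes of HNF4α score for members and sites with HDAC3 and PROX1, and with the CTCF consensus in 4 ranges of score for isolated members, sites with both and sites with PROX1 only; bars are 95% Wilson intervals. The CTCF share of isolated members reaches 29.3% at scores of 80 or more while the sites with both stay at 4.18%.

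The GC box GGGCGG, bound by SP factors, and the ETS core CCGGAAG were the other motifs more frequent in members, at 4.83% against 2.81% (chi-square adjusted p = 2.0e-12) and 0.956% against 0.664% (chi-square adjusted p = 0.035). Isolated members held the GC box in 4.59%. In the members' flanks the GC box was in 3.88% and the ETS core in 0.904%. In the flanks of sites with both the shares were 3.42% and 0.871%, above those of the sites themselves. The ETS difference did not pass under 6 of the alternatives, isolated members among them (0.236 points, chi-square adjusted p = 0.12). Base composition of the windows was close, with a median GC content of 47.5% (quartiles 43.0% and 53.0%) in members and 47.0% (42.5% and 51.0%) in sites with both. In windows with a CTCF match the median was 51.5% in members and 51.0% in sites with both. None of the 19 motifs was found in 966 members (14.4%) and in 15.8% of sites with both.

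Members lay inside genes more often than sites with both. By GENCODE models of protein-coding genes, 3518 members (52.6%) were centred in introns, 360 (5.38%) in exons and 2815 (42.1%, 40.9 to 43.2) between genes. Of sites with both, 46.7% (45.8 to 47.6) were intergenic, so that members differed by -4.63 points (-6.11 to -3.15, p = 1.1e-09, chi-square test) and isolated members by -4.91 (-6.50 to -3.33). Introns differed by 2.76 points (chi-square p = 3.0e-04) and exons by 1.87 points (chi-square p = 8.8e-10). Sites with PROX1 only were near members, at 41.0% intergenic and 54.9% in introns, and sites with HDAC3 only were 37.4% intergenic. The median distance to a protein-coding TSS, which the rule limits, was 17.9 kb in members and 20.5 kb in sites with both. Members were also less often near another HNF4α peak. One lay within 10 kb of 51.3% of members, 45.7% of isolated members and 69.4% of sites with both. For sites with PROX1 only and with HDAC3 only, the shares were 56.9% and 57.7%.

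Genes were assigned by the nearest protein-coding TSS within 100 kb, which says nothing of regulation. That gave 5927 members (88.6%) to 4098 genes, 18.3% of the 22380 protein-coding genes. Of these genes, 2873 had a single member, 45 had 5 or more, and 2178 (53.1%) also had a distal site with both factors. At 1674 genes every distal HNF4α peak was a member. The genes with the most members had many other HNF4α peaks too. Gm10309 had 8 members. Itpr1, an endoplasmic reticulum calcium channel, Rere, a nuclear receptor corepressor, Rreb1, a zinc finger factor, St3gal3, a sialyltransferase, Zbtb20, a repressor of alpha-fetoprotein in liver, and 2010111I01Rik each had 7. Macf1, a cytoskeletal linker, and Pde4d, a cAMP phosphodiesterase, had 6, and Macf1 had no site with both.

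Other genes had members alone. Wasf2, a regulator of actin assembly, had 5 distal HNF4α peaks, all isolated members, with a median score of 41.9. Kdm6b, a histone demethylase, had 4 with a median of 67.6 and a highest score of 82.5. Nr3c2, the mineralocorticoid receptor, had 4 that reached 88.6, and Uggt2, a glycoprotein folding sensor, 4 that reached 124.9. Abca4, Adnp, Ctnnbip1, Foxp4, Reps1 and Srd5a2 also had 4 each.

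At genes of hepatocyte function, members were a smaller share of HNF4α binding than elsewhere. In all, 10 lists of liver functions held 211 genes in the annotation, with 654 distal HNF4α peaks, of which 127 (19.4%, 16.6 to 22.6) were members and 475 (72.6%) had both factors. Elsewhere 31.9% (31.2 to 32.5) of distal peaks were members. The peaks at the listed genes also had higher scores, with a median of 50.9 against 42.4, and the share of members was lower at higher scores, so no test was made. At least 1 member was found at 91 of these genes (43.1%), against 18.3% of all protein-coding genes. The listed genes also had more distal HNF4α peaks per gene, 654 at 211 genes against 18205 at 22169 other genes. The share of genes with a member was not adjusted for this.

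By list, members made up 15.7% (9.01 to 26.0) of the distal peaks at apolipoprotein and lipoprotein genes, 8.82% (3.05 to 23.0) at coagulation genes, 16.9% at genes of plasma carriers and acute phase proteins, 17.7% at bile acid genes and 18.6% at cytochrome P450 and phase II enzyme genes. The shares were 19.7% at urea cycle and amino acid genes, 20.4% at genes of lipogenesis and triglyceride storage, 20.3% at genes of fatty acid oxidation and ketogenesis and 24.1% at genes of glucose and glycogen metabolism. Complement genes, at 32.3% (18.6 to 49.9), hepatocyte transcription factors, at 29.5% (22.8 to 37.3), and core clock genes, at 28.6% (19.3 to 40.1), were near the 31.4% over all genes. The intervals, which cover counting error only, lay wholly below that share for 8 of these 12 lists. These shares are not adjusted for peak score, so the count is not a test.

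Lists of other tissues and cell types had few distal HNF4α peaks, 5 to 28 a list, and shares on both sides of the background. Of the genes matched, 5 of 22 intestinal and renal HNF4 targets, 4 of 20 endothelial and stellate markers, 1 of 20 Kupffer and other immune markers, 2 of 15 cholangiocyte markers and 3 of 22 neuronal and muscle genes had a member, beside 18.3% of all protein-coding genes. In the same order, members were 7 of 28, 4 of 18, 2 of 7, 2 of 17 and 4 of 5 of the distal peaks at these lists.

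**Figure D5:**
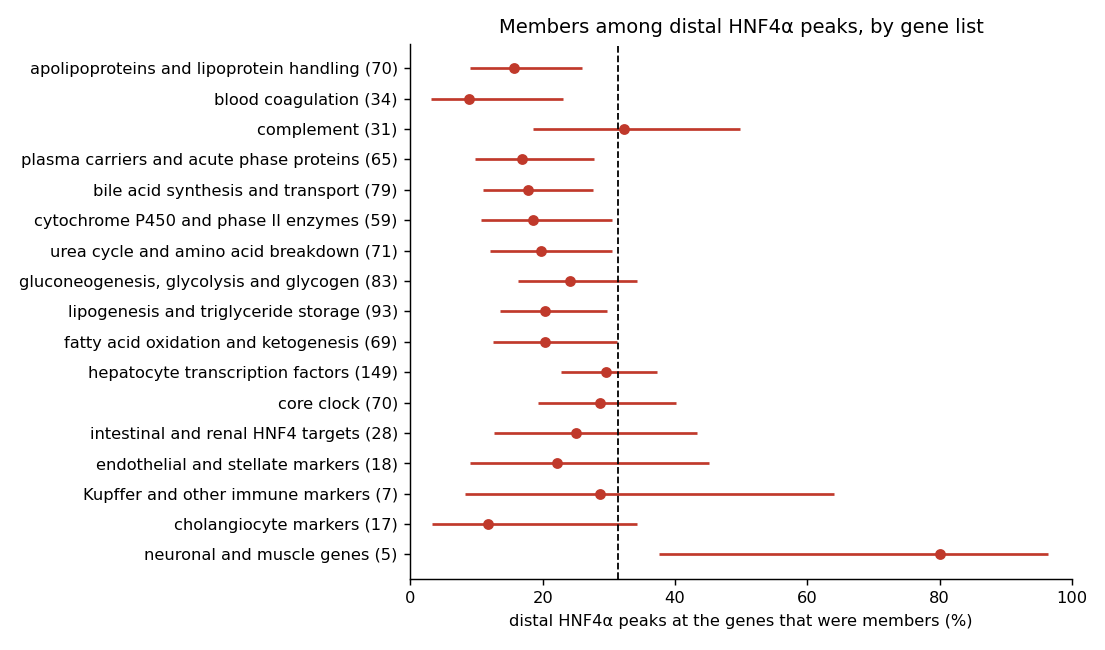
Share (%) of the distal HNF4α peaks at the genes of each list that were members, with 95% Wilson intervals and, in brackets, the number of distal peaks. The dashed line is the share at all protein-coding genes, 31.4%. Most hepatocyte function lists lie to its left, without adjustment for peak score.

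The top member of each list gives the range of such sites. Beside Apoe and Fasn (score 114.0), it was 111.2 at Ppara, the fatty acid sensing receptor that stands in 2 of the lists. That member lay 132 bp from a shared HDAC3 and PROX1 peak. Abcb4, the canalicular phospholipid pump, had one of 70.2 with 1 mismatch to the HNF4 consensus, 10454 bp from a PROX1 peak. Tat, tyrosine aminotransferase, had one of 69.3, and Anpep, an aminopeptidase of the intestinal brush border, one of 68.8 that lay 51992 bp from a shared peak. At Itih3, C4bp, Cyp2b10, Klkb1 and Nfil3 the highest were 66.4, 65.5, 54.2, 45.2 and 77.7. The highest at Lyve1, Myog, Cd4 and Spp1 were 45.7, 45.7, 43.8 and 26.9.

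Some listed genes, named after their values were seen, had members and no site with both. Anpep had 3, all isolated and its only distal HNF4α peaks. C1s, a complement protease, had 3 in the same way, and Abcb11, the bile salt export pump, had 2 with a highest score of 28.3. Tef, a clock output factor, had 2 and Nr1d1, which encodes Rev-erbα, had 1 with a score of 26.9. Conversely Cyp7a1, the rate-limiting enzyme of bile acid synthesis, had 5 distal HNF4α peaks, each with both factors, and no member. Hnf4a itself had 4 members among 9 distal peaks, and Prox1 had 2 among 10.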

How the data were processed

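ChIP-seq of HNF4α (2 labelled libraries), HDAC3 (3) and PROX1 (3) was used, as 3 lists of peaks. The methods give 3 livers for each ChIP, and which libraries entered the HNF4α list is not given in the sources used here. Per the study's methods, mm9 alignment was by Bowtie 0.12.7, duplicates were dropped, the authors pooled the replicates, and HOMER found peaks over IgG, with limits on normalised read density that gave the deposited peak positions. The HNF4α list also has a deposited score for each peak, taken to be the peak caller's, whose scale is not given in the sources used here. HDAC3 and PROX1 peaks are 200 bp wide and HNF4α peaks 85 to 168 bp. Read depth is unknown.

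Distances were taken between peak centres, and TSS and gene models from GENCODE vM1 on NCBIM37 (mm9). Motifs were matched in that genome. Gene lists held 356 entries, of which 354 matched the annotation. Members, motifs and lists were chosen with earlier results of these data known. Named sites were the 12 highest-scored members, the highest in each list, those at each limit, and the 10 genes with most members, overall and without other distal HNF4α peaks. Results at a few genes that this rule or the lists took in are not reported here. Scripts used Python 3 with scipy and pysam, and were tested on simulated data. Alternatives changed the cover, the TSS, the score range, the isolation, the window, the mismatches and the correction of the test. Repeat masking was not compared, as the genome used is not soft-masked.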

Additional observations from a re-analysis of the deposited data

How the results depend on the processing

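Across the alternatives, 144 values kept their direction and side of the threshold or stayed within the limits for counts and medians. The number of members fell to 1932 when HNF4α peaks with scores above the list median alone were used, and lay between 5446 and 7813 otherwise. Their median score was 53.2 under that setting, 34.4 with cover of 75% as the limit and 32.0 in isolated members. The HNF4 consensus difference from sites with PROX1 only turned to -6.57 points above the median score, while within 5 classes of score, an alternative added after the data were seen, it averaged 5.37 points (Cochran-Mantel-Haenszel chi-square p = 1.5e-06). The Rev-erb DR2 difference turned to 0.0119 points in 100 bp windows and passed the threshold under no setting. The differences of the HNF4, C/EBP, FOXA, CTCF and ONECUT motifs from sites with both, and of the intergenic share, kept direction and threshold under every alternative run, those of CTCF and ONECUT having been added after the data were seen, but some sizes moved by over 1.5 times. With 1 mismatch fewer the HNF4 difference went from 16.4 to 9.44 points, that of C/EBP from -9.08 to -1.79 and that of CTCF from 4.13 to 2.18. The CTCF difference was 6.44 points above the median score, and that of FOXA went from -2.25 to -1.22 in 100 bp windows. Of 19 motifs, 14 or 15 passed. The calls that changed were those of the ETS core, the DR1 element, the AP-1 site and the E-box. The masked repeat share was not run, as the genome holds no repeat masking. No paired analysis was possible because each factor has a single list made from pooled libraries. Sites with HDAC3 or PROX1 signal under the lists' limits cannot be told apart from sites without any.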

Other observations

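Chromosome X stood apart in the share of members. There, 102 of 233 distal HNF4α peaks were members (43.8%, 95% Wilson interval 37.6 to 50.2), and on chromosomes 1 to 19 the share lay between 27.5% and 34.8%. The median score of members on X was 29.9, below the 31.1 to 34.4 of the other 19 chromosomes, and the share of members was lower at higher scores, so the share was not tested. On X the HNF4 consensus stood in 67.6% of members and 58.5% of sites with both. Both distal HNF4α peaks on chromosome Y were members.

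Promoter HNF4α peaks without HDAC3 or PROX1, within 1 kb of a protein-coding TSS, numbered 1481. Their median score of 34.4 was close to the 33.0 of the distal members, while the median GC content of their windows was 56.5% against 47.5%, and 2.90% of the windows held no CpG against 14.3%.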
